A study of Mus musculus with 31 samples.

Results

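H3K9me3 was compared between female and male mouse germ cells at stage E13.5 (embryonic age in days), over the autosomes only. The members are the broad H3K9me3 peaks on chromosomes 1 to 19 in the lists of 3 E13.5 female and 3 E13.5 male libraries, chosen by mark, stage and sex from the sample titles. They number 153126 of the 265293 peaks in the 18 peak lists of the whole series, which mapped H3K27me3 and H3K9me3 at E10.5 and E13.5 during the loss of DNA methylation in the germ line. Both groups were wild type, on a C57BL/6 x GOF18delta_PE-EGFP background, and were untreated. GOF18delta_PE-EGFP is a reporter that drives green fluorescence in germ cells and served to sort them. Each ChIP used 1000 sorted cells, native chromatin cut with micrococcal nuclease and 250 ng of antibody, and libraries were read as 100-bp paired ends. The labels give sex as female or male. They name no animal or pool for a replicate, and the p-values below therefore speak of the spread among these 6 libraries, part or all of which may be technical.

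H3K9me3 is the trimethylation of lysine 9 of histone H3. SETDB1 and the SUV39H enzymes write it, HP1 proteins bind it, and it marks pericentromeric satellite DNA, endogenous retroviruses and clusters of zinc-finger genes. In primordial germ cells, where DNA methylation is erased, H3K9me3 laid down by SETDB1 keeps part of the retrotransposons silent. At E13.5 female germ cells are about to enter meiosis and male germ cells are entering mitotic arrest.

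The female lists held 8786, 16342 and 5280 autosomal peaks in replicates 1, 2 and 3, and the male lists 51695, 42954 and 28069. Autosomes took 78.6 to 80.5% of the peaks in female and 91.2 to 91.5% in male lists. Each male list held 87 to 135 peaks on chromosome Y and each female list 5 or 6, which accords with the sex in the labels. The peak names in every list give an input library of the same stage and sex as its control. Read depth is unknown because the lists hold no counts, so a difference in how much chromatin carries the mark and a difference in depth or enrichment of the ChIP cannot be told apart here. Positions are in mm9. Genes are not named, because the annotation at hand is of another build, and no sequence is shown for the same reason.

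With all peaks counted, male germ cells had more, wider and more closely spaced H3K9me3 peaks than female germ cells. Autosomal peak length, the sum of peak widths, was 4.83, 9.75 and 3.29 Mb in the female libraries and 74.0, 43.4 and 23.5 Mb in the male libraries. The groups did not overlap, and the lowest male library lay above the highest female library. Means were 5.96 ± 3.37 Mb in female and 46.9 ± 25.4 Mb in male cells (SD, n = 3 each), a ratio of 7.88. These lengths are 0.133 to 0.394% of the autosomes in female and 0.952 to 2.99% in male libraries. Peak number averaged 10136 ± 5653 in female and 40906 ± 11945 in male lists (SD, n = 3 each), a ratio of 4.04. For both measures the exact permutation test gave p = 0.1 (two-sided), the smallest p that 3 against 3 libraries allow, and 0.13 after Benjamini-Hochberg adjustment over 13 tests.

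Peak width separated the sexes as well. The median width was 397, 475 and 462.5 bp in the female lists and 890, 716 and 616 bp in the male lists, so every male median exceeded every female median. The difference of the means, 445 ± 41.9 against 741 ± 139 bp (SD, n = 3 each), had an exact permutation p of 0.1. Peaks of 2 kb or wider held 8.11, 9.31 and 12.3% of the length in female and 56.7, 35.3 and 24.6% in male libraries (exact permutation p = 0.1). Wide peaks were thus a small part of the female lists and a large part of the male ones. Peaks of 5 kb or wider numbered 10, 21 and 14 in the female lists and 1947, 360 and 104 in the male lists. The narrowest peaks (158 to 195 bp in female, 177 to 182 bp in male lists) and the smallest gaps between peaks (633 to 781 and 709 to 729 bp) were similar in the lists of both sexes. Lists with a wider narrowest peak also had a larger smallest gap. Whether settings of the peak calling fixed these limits was not tested, and they are not read as a trait of either sex.

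**Figure D1:**
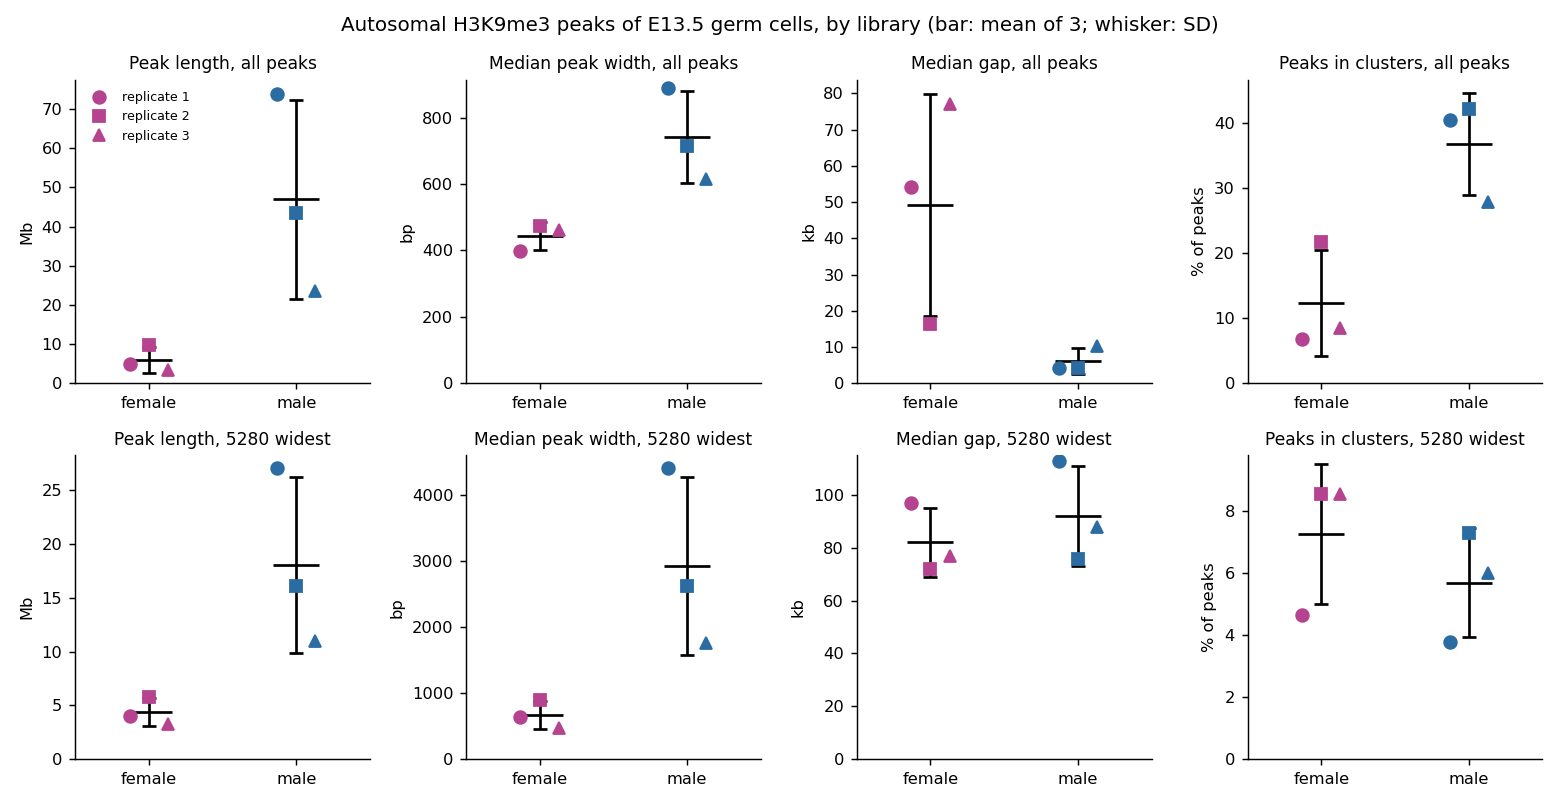
Autosomal H3K9me3 peaks in each E13.5 library: peak length (Mb), median width (bp), median gap between neighbouring peaks (kb) and share of peaks in clusters (%), for all peaks (top) and the 5280 widest peaks of each list (bottom). Points are libraries, bars means and whiskers SDs; length and width lie apart by sex in both rows, whereas gaps and clusters overlap in the bottom row, where peaks were taken by width.

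Neighbouring peaks were closer together in male lists. The median gap from a peak to the next was 54189, 16256 and 77111 bp in the female lists and 4162, 4110 and 10204 bp in the male lists (exact permutation p = 0.1). Gaps under 2 kb made up 6.86 to 17.2% of gaps in female and 23.5 to 38.2% in male lists. A cluster was defined as 5 or more peaks with gaps of at most 10 kb. Clusters held 6.82, 21.7 and 8.54% of the peaks in female lists and 40.4, 42.2 and 27.8% in male lists (exact permutation p = 0.1), again without overlap. More peaks on the same autosomes also lie closer together, so these differences in spacing and the number of peaks cannot be told apart. The number of clusters was 82, 424 and 57 in female and 1866, 1705 and 855 in male lists. The median cluster had 6 peaks in all 6 lists, just above the least number that defines a cluster, and the median span was 21.8 to 24.4 kb. The most peaks in a cluster were 30, 64 and 28 in female and 348, 236 and 160 in male lists. Of the female clusters, 89.0, 91.0 and 100% touched a cluster of the male list of the same number, while 2.95, 17.01 and 4.91% of the male clusters touched a female one.

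The cluster with most peaks in each list lay in a few parts of the genome. In female replicates 1 and 2 these were chr1:85227511-85343596 with 30 peaks and chr1:87345338-87555070 with 64 peaks, and in female replicate 3 chr5:95447278-95559415 with 28 peaks. All 3 of these female clusters were more covered in male libraries. The first had 55.4, 85.5 and 65.3 kb in female and 106, 103 and 94.4 kb in male peaks, joined into 10 to 20 male peaks against 27 to 30 female ones. In male replicate 1 the cluster with most peaks was chr17:38570228-39768632, with 348 peaks over 1198 kb. In male replicates 2 and 3 it lay on chromosome 7, at chr7:15219469-16045841 with 236 peaks and at chr7:15660888-16257272 with 160 peaks. The chromosome 17 cluster also held 57, 106 and 34 female peaks, with 28.7, 53.0 and 16.9 kb, against 472, 356 and 111 kb in male peaks.

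To compare lists of unequal size, the 5280 widest autosomal peaks of each list were taken, the number in the shortest list. These were 60.1, 32.3 and 100% of the female lists and 10.2, 12.3 and 18.8% of the male lists. The narrowest peak taken was 321, 659 and 195 bp wide in the female lists and 3181, 1925 and 1232 bp wide in the male lists, and the widest peak left out was equal or 1 bp narrower in the 5 lists that had any. At this equal number the median width was 640, 895 and 462.5 bp in female and 4394, 2613 and 1761 bp in male lists. The ratio of the means, 666 ± 217 and 2923 ± 1344 bp (SD, n = 3 each), was 4.39 (exact permutation p = 0.1). Length was 4.00, 5.81 and 3.29 Mb in female and 27.1, 16.1 and 11.01 Mb in male libraries (exact permutation p = 0.1). A longer list has more wide peaks to draw from, so this width difference and the size of the lists cannot be told apart.

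Among the 5280 widest peaks the sexes overlapped in spacing. The median gap was 97064, 71969 and 77111 bp in female and 112843, 75826 and 87897 bp in male lists, with means of 82048 ± 13256 and 92189 ± 18878 bp (SD, n = 3 each, exact permutation p = 0.6). Clusters held 4.64, 8.56 and 8.54% of the female and 3.79, 7.27 and 5.98% of the male peaks (exact permutation p = 0.5). For both measures the libraries of the 2 sexes overlapped. In each list, the 100 autosomal 1-Mb bins with most peak length held 36.6, 43.0 and 49.4% of the female length and 32.2, 41.1 and 37.2% of the male length (exact permutation p = 0.3). When the 5280 peaks of each list were taken by score in place of width, the median gap was 118904, 79167 and 77111 bp in female and 170540, 136278 and 131958 bp in male lists, without overlap and wider in male cells (exact permutation p = 0.1). For the 1000 widest peaks the difference in the share in clusters, male minus female, was -2.8 percentage points (exact permutation p = 0.1). Without male replicate 1 the difference in the median gap of the 5280 widest peaks was -186.5 bp, against 10141 bp with all libraries. After adjustment over the 13 tests these p-values were 0.6, 0.542 and 0.355. They do not show that spacing is alike, since 3 libraries a sex leave a wide spread.

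A score minimum and an equal length were also tried. Peaks with a deposited score (column 9 of the peak lists) of at least 20 numbered 1643, 1765 and 2272 in female and 4111, 4090 and 4545 in male lists, with 1.00, 1.21 and 1.56 Mb against 7.18, 4.52 and 4.16 Mb. Median widths were then 326, 310 and 423 bp in female and 890, 568 and 530 bp in male lists. Length and width thus still lay apart, by ratios of the means of 4.20 and 1.88 (exact permutation p = 0.1 for both). The share of peaks in clusters turned round, to 12.5 ± 2.22% in female and 7.94 ± 1.83% in male lists (SD, n = 3 each, exact permutation p = 0.1). When the widest peaks of each list were taken up to 3.29 Mb, the length of the shortest list, they numbered 3525, 2090 and 5280 in female and 268, 520 and 835 in male lists. Their median widths were 765, 1325 and 462.5 bp in female and 10965, 5439 and 3442 bp in male lists.

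Female peaks often lay where male cells also had a peak. Over the 9 pairs of a female with a male list, 46.9 to 79.4% of the autosomal female peaks touched a male peak, under 50% for female replicates 1 and 2 with male replicate 3. Between lists of the same replicate number, a male peak touched 79.3, 57.7 and 57.7% of the autosomal female peaks, while a female peak touched 11.9, 20.4 and 10.53% of the male peaks. By length, 72.7, 46.6 and 49.0% of the female peak length lay in male peaks and 4.75, 10.49 and 6.85% of the male length in female peaks. Over all 9 pairs the share of female length in male peaks was 36.8 to 72.7%. For lists of the same number this overlap was 24.3 to 51.5 times what the lengths of the lists would give if peaks lay independently along the autosomes, and this ratio carries no test. Each female peak that touched a male peak was compared with the widest male peak it touched, which was the wider in 93.6, 80.6 and 74.0% of cases. The median female peak that touched a male peak was 433, 551 and 526 bp wide, and the median of these widest male partners was 2673.5, 1400 and 1005 bp.

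Male peaks that touched a female peak were wider than the other male peaks. Their median width was 2303, 1252 and 960 bp in male replicates 1, 2 and 3, against 815, 642 and 590 bp for male peaks without a female partner. The share with a female partner was 5.22, 10.7 and 7.16% for male peaks under 500 bp. It was 57.0, 80.9 and 61.1% for male peaks of at least 5 kb and under 10 kb and 81.1, 93.3 and 100% for the 201, 30 and 9 male peaks of 10 kb or more. A wider peak has more room to touch another, and how much of the trend this gives was not tested. Female peaks that touched a male peak were also wider than female peaks that did not, with medians of 310, 393 and 402 bp for the latter.

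**Figure D2:**
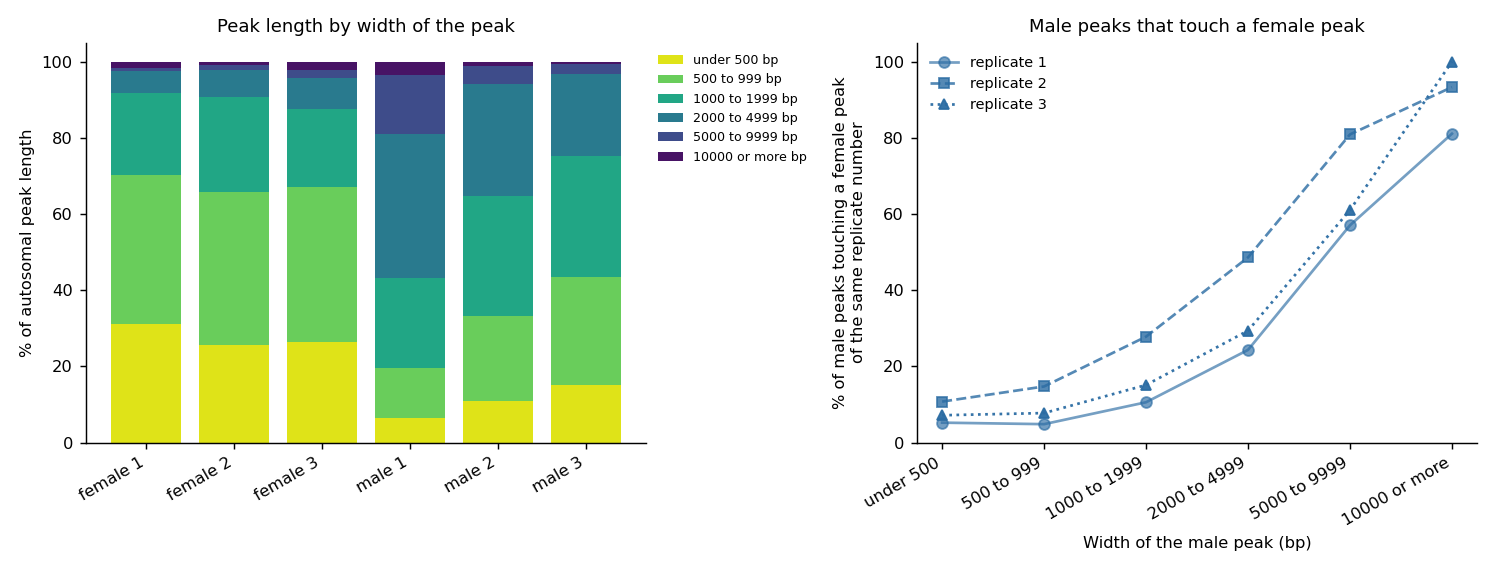
Left, the share of autosomal H3K9me3 peak length (%) by width class of the peak in each library, where peaks of 2 kb or wider hold 8.11 to 12.3% in the female libraries and 24.6 to 56.7% in the male ones. Right, the share of male peaks (%) that touch a female peak of the same replicate number by width of the male peak (bp), 1 line per replicate number, which is highest for peaks of 10 kb or more in each.

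With all peaks counted, pairs of male lists were more alike than pairs of female lists or pairs across the sexes. The Jaccard index, the shared over the joint covered length, was 0.182 to 0.277 for the 3 male pairs, 0.0812 to 0.0857 for the 3 female pairs and 0.0319 to 0.121 for the 9 pairs of a female with a male list. This index cannot exceed the length of the shorter list over that of the longer. Every male list was longer than every female list, also among the 5280 widest peaks. A low index across the sexes and this difference in length cannot be told apart here. The mean within a sex, 0.149, exceeded the mean across the sexes, 0.0682, by 0.0808 (one-sided exact permutation p = 0.1, the smallest that 10 divisions of 6 libraries allow). The difference was 0.0325 without male replicate 1, 0.0385 without male replicate 2 and 0.1304 without female replicate 2. Female replicate 2 had an index of 0.0851, 0.0936 and 0.121 with male replicates 1, 2 and 3, against 0.0812 and 0.0815 with female replicates 1 and 3. Female replicates 1 and 3 had an index of at most 0.0738 with any male list, below that of every female pair. These are the shortest lists, so their length limits that index, and it is not read as likeness by sex. At equal number the female pairs had 0.0785 to 0.0882, the male pairs 0.140 to 0.182 and the pairs across the sexes 0.0465 to 0.105, and the difference of the means was 0.0493 (one-sided exact permutation p = 0.1). Among the 5280 highest-scored peaks of each list, the mean index was 0.111 for female pairs and 0.114 across the sexes, against 0.186 for male pairs. For the widest peaks up to equal length, male pairs had 0.0925 to 0.119 and female pairs 0.0758 to 0.0926. Pairs across the sexes then had 0.0615 to 0.0976, so the male range overlapped both others. The mean within a sex exceeded that across the sexes by 0.0185 (one-sided exact permutation p = 0.1).

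**Figure D3:**
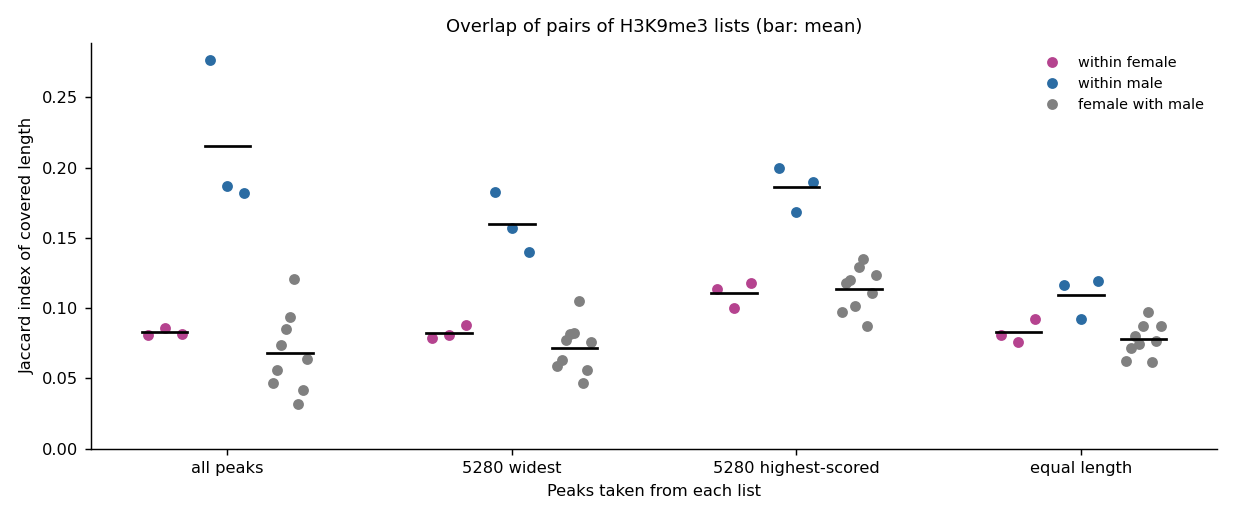
Jaccard index of covered autosomal length for pairs of E13.5 H3K9me3 lists, for all peaks, the 5280 widest peaks, the 5280 highest-scored peaks and the widest peaks up to equal length. Points are pairs and bars means; the male pairs have the highest mean in all 4 columns, and female pairs lie within the range of pairs across the sexes.

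In 10-kb bins, many positions were marked in the 3 male lists and in no female list, and none the other way round. A library was counted as holding a bin if 1 kb or more of it lay in its peaks. Bins held by the 3 male lists without any female list are called male-only here, and those with the sexes exchanged female-only. Of the 23778 autosomal bins held by at least 1 of the 6 libraries, 3512 (14.8%) were male-only, 0 (0%) were female-only and 159 (0.669%) were held by all 6. Female libraries shared few bins, since 163 of the 4019 bins held by any female library were held by all 3 (4.06%), against 6071 of 23670 (25.6%) for male libraries. Of the 163 bins, 159 (97.5%) were also held by all male libraries. Of the 4019 bins held by any female library, 108 (2.69%) were held by no male library, 106 of them in a single female list. Without male replicate 3 there were 9106 male-only bins, and bins held by all numbered 382 without female replicate 1 and 485 without female replicate 3. Every male list was longer than every female list, and sex and list length cannot be told apart in these counts.

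Many of the 3512 male-only bins were close to the limit of 1 kb. In 2660 of them (75.7%) at least 1 female library had some peak length under that limit, and 852 had none. The lowest male library held a median of 1.55 kb in these bins and under 1.5 kb in 1650 of them. Bins in which no female library had any peak length and every male library had at least 2 kb numbered 146. Most stood alone, with 2643 of 3028 merged regions being a single bin. At equal number, 665 of 11159 bins (5.96%) were male-only, 1 (0.00896%) was female-only and 111 (0.995%) were held by all 6. Leaving out male replicate 1, 2 or 3 gave 1089, 1432 and 1554 male-only bins at equal number. At equal length these were 8 (0.2%), 25 (0.624%) and 41 (1.02%) of 4006 bins, and female-only bins then outnumbered male-only ones.

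The 25 female-only bins at equal length were not shown to hold more peak length in female cells. The longest region among them, chr1:87430001-87450000, had 3.41, 5.33 and 4.66 kb in all peaks of the female lists and 11.3, 8.91 and 7.41 kb in all peaks of the male lists. The single female-only bin at equal number was chr2:98500001-98510000, with 2.45, 2.28 and 1.82 kb in female and 2.48, 3.23 and 2.25 kb in male libraries. All 6 E13.5 H3K27me3 libraries also had 1.74 to 1.96 kb in peaks in that bin.

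The region with the clearest difference was chr3:25410001-25460000. It held 34.8, 36.7 and 24.5 kb in peaks in male replicates 1, 2 and 3 and 0 kb in all 3 female libraries. The 6, 5 and 14 male peaks there began at 25416332, 25416314 and 25418214 and ended at 25456339, 25456224 and 25456305, so that the edges of the domain differed by less than 2 kb between libraries. The nearest female peaks ended 91.9 to 233 kb before it and began 552 to 787 kb after it. Part of it was also male-only at equal number (chr3:25420001-25450000) and at equal length (chr3:25420001-25440000). It kept its whole male length of 31.99 kb on average among peaks with a score of at least 20. In the H3K9me3 lists of E10.5 cells, which carry no sex in the labels, replicate 2 had 35.6 kb in 4 peaks from 25416395 to 25455904, and replicates 1 and 3 had 0 kb. No H3K27me3 list of E13.5 cells had a peak there.

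The other 9 of the 10 longest male-only regions had some female peak length. The longest, chr7:15250001-15330000, held 2.42, 3.78 and 0.567 kb in female and 37.8, 27.3 and 16.7 kb in male libraries. Female libraries held at most 3.12 kb and male libraries at least 14.1 kb in chr9:19670001-19740000 and chr11:73920001-73990000. In the 6 shorter regions chr12:25000001-25050000, chr12:116140001-116190000, chr4:112150001-112190000, chr6:130360001-130400000, chr7:21090001-21130000 and chr7:32240001-32280000, female libraries held 0 to 2.78 kb and male libraries 6.54 to 24.5 kb. Their mean male minus female length was 7.88 to 25.7 kb with all peaks. Among peaks with a score of at least 20 it was at most 3.24 kb, with -0.062 kb at chr12:116140001 and -0.278 kb at chr6:130360001. Most of the male length in these 9 regions thus lay in peaks of lower score, unlike that on chromosome 3.

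Other regions with no female peak length were smaller. After the chromosome 3 region, those with the highest value in the lowest male library were chr7:15990001-16010000 with 12.1, 7.14 and 6.63 kb, chr2:27350001-27360000 with 5.70, 6.41 and 5.52 kb, chr8:53210001-53230000 with 6.55, 5.05 and 5.40 kb, and chr16:20980001-21000000 with 13.1, 4.67 and 6.95 kb in male replicates 1, 2 and 3. These 4 were chosen after their values were seen. At equal number the longest male-only regions besides chromosome 3 were chr1:27770001-27800000, chr5:95240001-95270000, chr1:6150001-6170000 and chr1:8170001-8190000. With all peaks counted, they held at most 3.04 kb in a female and at least 5.48 kb in a male library.

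**Figure D4:**
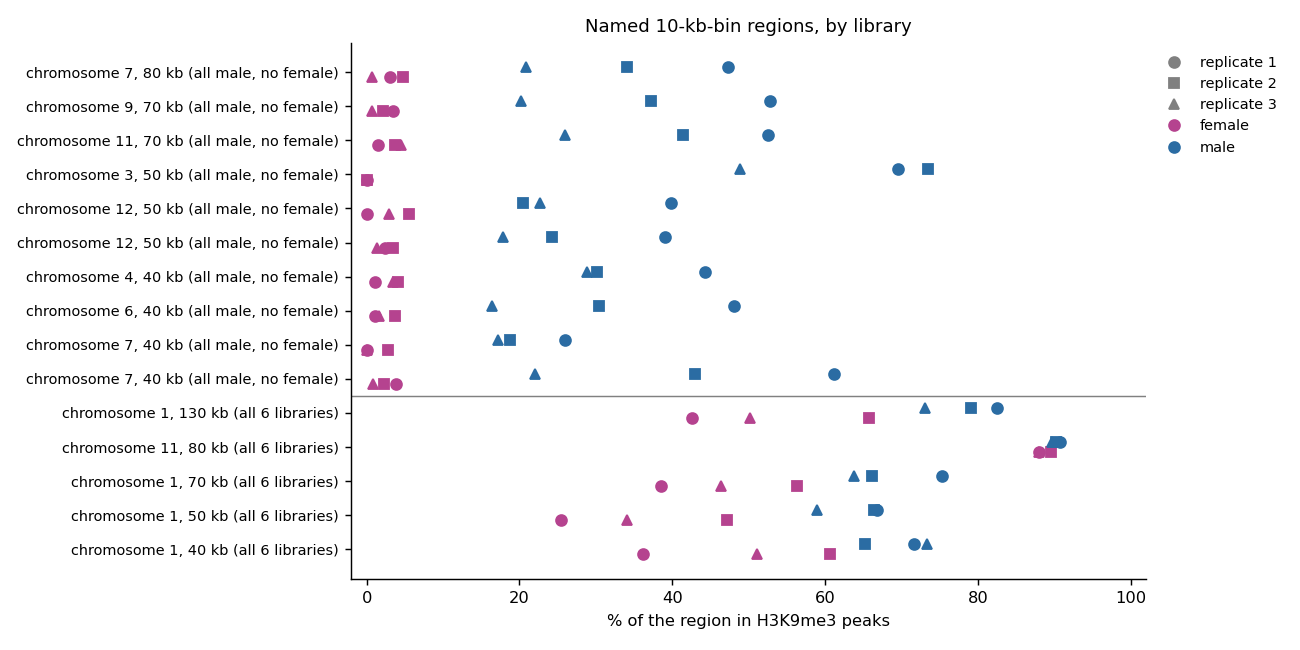
Share of each named region in H3K9me3 peaks (%), by library, for the 10 longest male-only regions of 10-kb bins (top) and the 5 longest held by all 6 libraries (bottom). Points are libraries; the 50-kb region on chromosome 3 is at 0 in all female libraries, and the 80-kb region on chromosome 11 is covered to nearly the same extent in all 6.

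The regions held by all 6 libraries were well covered in female cells too. The longest, chr1:85220001-85350000, had 55.4, 85.5 and 65.3 kb in female and 107, 103 and 95.1 kb in male peaks, without overlap. Another 3 on chromosome 1, chr1:87460001-87530000, chr1:84960001-85010000 and chr1:85070001-85110000, had 33.0 ± 6.25, 17.8 ± 5.47 and 19.7 ± 4.93 kb in female and 47.9 ± 4.27, 32.0 ± 2.20 and 28.0 ± 1.70 kb in male libraries (SD, n = 3 each). In contrast, chr11:3020001-3100000 near the start of chromosome 11 had 70.4, 71.7 and 70.4 kb in female and 72.5, 72.1 and 71.7 kb in male libraries, a difference of 1.28 kb. The widest peak of every list lay there. It spanned 27796, 47699 and 27774 bp in the female lists and 50382, 50387 and 47693 bp in the male lists, within 3049668 to 3100059. The second widest peak of each female list and of male replicate 3, at 21718 to 21777 bp, lay beside it, within 3026976 to 3048757, and those of male replicates 1 and 2, at 41217 and 30089 bp, lay in the chromosome 1 region. Unlike chromosome 11, chr9:3000001-3040000, held by all 6 at equal number, also had 6.74 to 24.9 kb in peaks of every E13.5 H3K27me3 list.

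The male-only bins were spread over all autosomes. Their density was highest on chromosome 7, with 491 of the 3512 bins or 32.2 per 1000 bins, and 8.27 to 17.7 per 1000 bins on the other autosomes. They lay in 1343 of 2482 autosomal 1-Mb bins, and the 53 that had 10 or more of them held 24.1% of all. The densest were chr7:15000001-16000000 with 29 bins, chr7:32000001-33000000 and chr12:116000001-117000000 with 26 each, and chr6:130000001-131000000 and chr7:34000001-35000000 with 25 each. The bins held by all 6 libraries were arranged otherwise, with 42 of 159 on chromosome 1, 19 on chromosome 7 and 17 on chromosome 5.

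Chromosome 7 carried about the same excess in both sexes. Its share of peak length over its share of the autosomal genome was 1.73, 1.95 and 2.32 in female and 1.81, 2.07 and 2.00 in male libraries, with means of 2.00 ± 0.297 and 1.96 ± 0.133 (SD, n = 3 each). The ratio of the male to the female mean share was highest on chromosomes 14 (1.28), 19 (1.28) and 10 (1.21) and lowest on chromosomes 11 (0.798), 1 (0.805) and 12 (0.879). On chromosome 11, chr11:3000001-4000000 alone held 7411 to 21916 bases per Mb of female peak length and 1229 to 3293 of male peak length. On chromosome 1, chr1:85000001-86000000 held 16376 to 35934 against 3152 to 8153. How far these single bins set the low ratios of their chromosomes was not tested. Libraries did not overlap between the sexes on 7 of 19 autosomes (36.8%), among them 1, 10, 11, 14 and 19 but not 12, with an exact permutation p of 0.1 and 0.271 after adjustment over the 19. At equal number 4 of 19 (21.1%) did not overlap, chromosomes 1, 8, 11 and 19. The first 10% of each chromosome's length, next to the centromere in the mouse, held 22.1 ± 1.28% of female and 19.2 ± 0.355% of male length (SD, n = 3 each, exact permutation p = 0.1), where a uniform spread would give 10%.

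**Figure D5:**
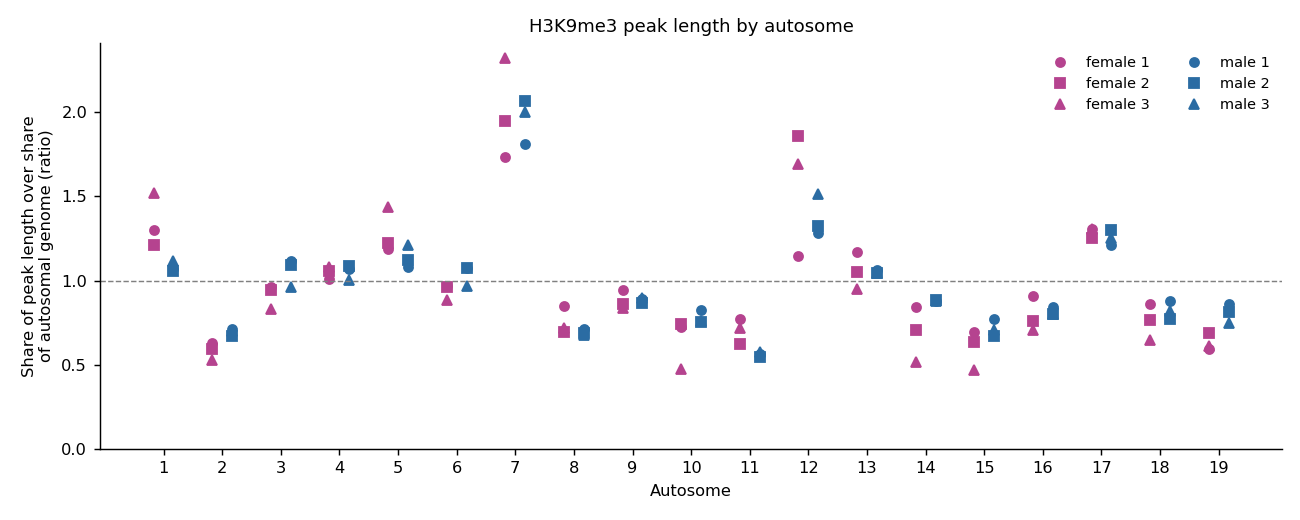
Share of H3K9me3 peak length over share of the autosomal genome (ratio) for each autosome and library, with a dashed line at 1. Chromosome 7 lies between 1.73 and 2.32 in all 6 libraries, and the male libraries lie below the female ones on chromosomes 1 and 11.

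Gene families that lie in clusters were set against the autosomes by number of genes, from the RefSeq table of GRCm38.p6, which gives the chromosome of each gene. Across the 19 autosomes the density of vomeronasal receptor genes (Vmn1r and Vmn2r, pheromone receptors, 352 genes) went with the share of peak length at r = 0.694 in female and 0.801 in male cells, and at 0.324 and 0.458 without chromosome 7. For Zfp genes, which code for zinc-finger proteins (388 genes), r was 0.577 and 0.616, and 0.212 and 0.190 without chromosome 7, while Spearman's rho was 0.254 and 0.0737. For Olfr genes, the odorant receptors (1104 genes), r was 0.0680 and 0.159, and -0.444 and -0.426 without chromosome 7. All protein-coding genes gave 0.149 and 0.161, and -0.273 and -0.366 without chromosome 7. Spearman's rho for the vomeronasal genes was 0.541 in female and 0.615 in male cells, and 0.457 and 0.544 without chromosome 7. For Olfr genes rho was -0.260 and -0.227, and -0.446 and -0.411 without chromosome 7. For all protein-coding genes it was -0.137 and -0.170. These relations describe 19 chromosomes in the same libraries, and each moved when chromosome 7 was left out. The male over female ratio of chromosome shares had r of -0.110 with the vomeronasal, -0.263 with the Zfp and 0.204 with the Olfr genes.

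At 1-Mb scale, no bin passed the test between the sexes once each library was scaled to its own total. limma on log2(ppm + 100), where ppm (bases per Mb) is the share of a bin in the library's autosomal peak length, called 0 of 2312 bins (0%) with all peaks and 0 of 1732 (0%) at equal number, at a Benjamini-Hochberg adjusted p of 0.05. The smallest adjusted p was 0.152 and 0.13. Without female replicate 2, 3 of 2280 bins were called with all peaks, chr1:12000001, chr5:88000001 and chr12:102000001, all higher in male cells (limma adjusted p = 0.0456). At an unadjusted p under 0.05 there were 302 bins with all peaks, 255 with more and 47 with less in male cells, and 136 at equal number, 88 with more and 48 with less. On simulated data of the same size, with 100 bins changed by each log2 size, limma called 73 bins changed by 2 and 99 bins changed by 4 with all peaks, and 46 and 93 at equal number. The 100 ppm added before the log limits how far a bin with little peak length can fall. Whether these numbers of calls hold for falls in such bins was not tested. The median log2 difference over all tested bins was 0.28 with all peaks and 0.18 at equal number. The values of single bins are to be read against these medians.

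The bins with the largest differences, none of them called, repeated the picture of the smaller bins. chr5:88000001-89000000 had 36.8, 110 and 0 ppm in the female lists, against 661, 719 and 586 ppm in the male ones, a log2 difference of 2.41 ± 0.32 (SE, limma adjusted p = 0.152). Next were chr5:5000001-6000000 at 1.84 ± 0.36 and chr3:25000001-26000000, which holds the chromosome 3 region, at 1.77 ± 0.46 (SE, limma adjusted p = 0.152 and 0.208). The lowest in male cells were chr11:3000001-4000000 at -2.71 ± 0.49, chr13:120000001-121000000 at -2.16 ± 0.39 and chr1:85000001-86000000 at -2.10 ± 0.44 (SE, limma adjusted p = 0.152, 0.152 and 0.170). In kb, each male library covered more of these 3 bins than the female library of the same number. The sexes overlapped in the chromosome 13 bin, with 7.515, 6.519 and 5.673 kb in female and 11.372, 7.396 and 6.554 kb in male peaks. The chromosome 11 bin had 73.1, 72.3 and 72.1 kb in female and 90.9, 82.6 and 77.5 kb in male peaks, and its lower male ppm is a share of a larger total.

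At equal number, the highest in male cells were chr5:88000001, with 0 ppm in each female list and 591 to 883 ppm in the male lists, chr3:25000001, with 107 to 624 against 1772 to 2513 ppm, and chr10:56000001, with 0 against 320 to 462 ppm (limma adjusted p = 0.13, 0.326 and 0.326). The lowest were chr8:99000001, with 202 to 449 ppm in the female lists and 0 ppm in each male list, chr8:42000001, with 191 to 494 against 0 ppm, and chr13:74000001, with 423 to 1035 against 0 to 242 ppm (limma adjusted p = 0.326 for each). A value of 0 ppm at equal number means no peak among the widest ones taken, and narrower peaks may lie in the bin. The narrowest peak taken was 3181, 1925 and 1232 bp wide in male replicates 1, 2 and 3, against 321, 659 and 195 bp in the female ones. The 0 ppm of the male lists is therefore not read as absence of the mark. With all peaks, chr5:88000001 had 36.8 and 110 ppm in female replicates 1 and 2. The size of a difference from 0 ppm depends on the 100 ppm added before the log. The chromosome 3 bin was called at equal number with 1000 ppm added (log2 difference 1.31, limma adjusted p = 0.0195), along with chr8:19000001 and chr11:3000001, which were lower in male cells (log2 differences -1.23 and -1.71, limma adjusted p = 0.0195 and 0.0198). In 100-kb bins at equal number the single bin called, of 3347 tested, started at chr3:25400001 (log2 difference 4.13, limma adjusted p = 0.0292).

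Most male-only bins were also marked in the longest E10.5 list. E10.5 replicate 2 held 77.2% of the 3512 male-only bins, against 4.82% of all autosomal bins. It held 96.0% of the 2400 bins of all male and 1 or 2 female libraries and all 159 bins of all 6 libraries. E10.5 replicates 1 and 3, whose lists are far shorter, held 3.90 and 0.0854% of the male-only bins, against 0.217 and 0.0231% of all autosomal bins. No E13.5 H3K27me3 list held any of the 3512 bins, and these lists held 0.00688 to 0.664% of all autosomal bins.

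The H3K27me3 lists of the same stage and sex, which map the mark of Polycomb repression, are shown for comparison. Autosomal H3K27me3 length was 1.51, 5.05 and 4.00 Mb in female and 2.46, 0.155 and 3.98 Mb in male libraries, which overlapped. Means were 3.52 ± 1.82 Mb in female and 2.20 ± 1.92 Mb in male cells (SD, n = 3 each), against 5.96 ± 3.37 and 46.9 ± 25.4 Mb for H3K9me3. The value of 0.155 Mb comes from an H3K27me3 list of male replicate 2 with 343 autosomal peaks. The difference between the marks was not tested.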

How the data were processed

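Each library has a list of broad peaks, called per sample against an input per the peak names. Per the submitters' processing notes the build was mm9 and the tools included BWA 0.7.5a, CASAVA 1.8.4, MACS2 2.1.0, deepTools 3.3.0, SAMtools and Picard, without roles. For peak thresholds, nothing is given in the sources used here. The scores per peak are the authors' deposited values. Their scale is unknown, as column 9 exceeds column 8 in 100% of peaks, and they served to rank or filter peaks. The lowest score was 12.7 to 15.4 in female and 11.7 to 12.4 in male lists.

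Lengths, widths, gaps and clusters were computed on chromosomes 1 to 19 with Python 3.11.15 and compared by exact permutation tests. limma 3.58.1 tested 1-Mb bins with peaks in at least 3 of 6 libraries, after a check on simulated data. Alternatives were each library left out, a score of at least 20, peaks within 1 kb merged, other bins, cluster gaps, rankings, pseudocounts and fits, and, chosen after seeing the data, the widest 10% of each list and equal length. Named are the longest runs of bins, the widest peaks, the cluster with most peaks, and the extreme autosomes and 1-Mb bins. Members, lists and rules were chosen with earlier results of these data known. Input libraries were not analysed here. The main tests did not treat samples as paired by replicate number.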

Additional observations from a re-analysis of the deposited data

How the results depend on the processing

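Over the alternatives run, autosomal length, number, width and the Jaccard differences did not turn round. The exact tests cannot go below p = 0.1 and so say nothing of stability. With 1 library left out, the difference in length lay between 27.5 and 52.7 Mb. With a score of at least 20, the difference in the share of peaks in clusters (male minus female) was -4.57 points. The difference in the median gap was -384916 bp for the widest 10% of each list, which are lists of unequal number. At equal number it lay between -186.5 bp (without male replicate 1) and 18322 bp with 1 library left out. At equal length the difference in the share of the densest 1-Mb bins was 16.9 points. The causes of these reversals were not tested.

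Counts of 10-kb bins moved with many rules. Male-only bins numbered 4947 with any overlap, 180 with a score of at least 20, 647 in 50-kb bins, 108 if peaks had to fill 50% of a bin, and 3677 to 9106 with 1 library left out (9106 without male replicate 3). Female-only bins numbered 2 with any overlap, 0 under the other 3 rules and 0 to 1 with 1 library left out. Bins of all 6 numbered 91, 31 and 20 under a score of at least 20, in 50-kb bins and at 50% of a bin, 1636 with any overlap, and 159 to 485 with 1 library left out (382 without female replicate 1, 485 without female replicate 3). At equal number, male-only bins were 318 with any overlap, 39 at 50% of a bin, 152 in 50-kb bins, 60 for the 1000 widest peaks, 157 for the highest-scored peaks, 8 at equal length and 727 to 1554 with 1 library left out (1089, 1432 and 1554 without male replicates 1, 2 and 3). Female-only bins at equal number were 66, 0, 0 and 8 under the first 4 of these, 1 for the highest-scored peaks, 3 for the widest 10%, 25 at equal length and 1 to 22 with 1 library left out (22, 7 and 14 without female replicates 1, 2 and 3, and 2 and 6 without male replicates 1 and 3). Fewer libraries must share a bin when 1 is left out.

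limma called 28 of 2312 bins with 10 ppm added and 18 of 1383 with a score of at least 20. It called 0 to 3 with 1 library left out (3 of 2280 without female replicate 2). All of these were higher in male cells. At equal number it called 40 of 1732 with 10 ppm added (24 higher, 16 lower) and 3 of 1732 with 1000 ppm (1 higher, 2 lower). It called 1 of 3347 in 100-kb bins and 28 of 532 for the 1000 widest peaks (18 higher, 10 lower). It called 203 of 1135 for the widest 10% (195 higher, 8 lower) and 204 of 837 at equal length (3 higher, 201 lower), in opposite directions. Peak length in male minus female libraries was -0.062 kb at chr12:116140001, -0.278 kb at chr6:130360001 and -0.0757 kb at chr1:8170001 with a score of at least 20.

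Same-numbered female and male libraries deviated from their group means with r of 0.0111, -0.0574 and 0.0164 over 2312 bins. These bins thus gave no sign of pairing by number. Whether libraries of the same number shared a batch, depth or ChIP efficiency was not tested. With a replicate block, the exact sign-flip permutation p was 0.25 for the length difference of 41.0 Mb, the smallest that 3 numbers allow, and limma called 0 bins with all peaks and 0 at equal number. Depth limits every count here and is unknown.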
